A study of Mus musculus with 10 samples.

Results

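The conducting airways of the lung are lined by secretory cells, and 10 genes for their products were followed here in mice kept in room air or exposed to intermittent hypoxia. They were chosen by gene symbol: a probe set, the group of short probes that reports a transcript on the array, counted where the array's annotation gave exactly 1 symbol and that symbol was a member. All 10 members were found, on 12 probe sets, among 12393 genes on 22626 probe sets. For Bpifb1 and Pigr, which had 2 probe sets each, the brighter one is reported and the other serves as a check.

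Total RNA came from whole lungs of male C57BL/6 mice, an inbred strain, aged 6 to 8 weeks, measured on Affymetrix Mouse Genome 430A 2.0 arrays. There were 5 normoxia arrays and 5 arrays of intermittent hypoxia, in which inspired oxygen falls and recovers repeatedly. The series' title speaks of chronic exposure and of the alveolar surface, and the design text says that animals were set aside for the arrays. Cycle, oxygen level, duration of exposure and trimming of the lungs are not given in the sources used here.

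Club cells are the dome-shaped secretory cells of the bronchioles, known for secretoglobins, small secreted proteins, and for enzymes that transform inhaled chemicals. Further up the airway, secretory cells and glands release mucins and host-defence proteins such as those of the BPI-fold family. The same surface carries the receptor that moves IgA antibodies into the airway fluid. In a whole-lung extract all of these are diluted by alveolar tissue, so fewer secretory cells and less RNA in each cell cannot be told apart.

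The arrays differed in ways that touch these genes. Medians of the log2 values were alike on all arrays, at 7.69 to 7.73, but the values of normoxia arrays 2, 3 and 4 were less spread (SD 1.89 to 1.93) than those of the other arrays (1.99 to 2.05). Normoxia array 2 carried transcripts of skeletal muscle: Acta1, skeletal muscle actin, stood at 13.12 there and between 5.68 and 6.99 on the other 9 arrays. The basal cell keratins Krt5 and Krt15 were also highest on that array, at 9.40 and 7.70. The immunoglobulin gene Igha reached 12.92 on it, against 9.81 to 11.39 elsewhere. The muscle list and the single genes named in this paragraph were chosen after their values were seen.

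In these lungs the group means of the bronchiolar club cell genes Scgb1a1, Scgb3a2, Cyp2f2 and Cbr2 differed by -0.01 to -0.13 log2 units, while 2 host-defence products of the airway fell. At an adjusted p below 0.05 in limma, a linear model with variances moderated over all probe sets, 2 of 10 members changed, and both were lower: Bpifb1 by 37.0% and Reg3g by 40.9%. Bpifa1 was 45.2% lower and missed the threshold (adjusted p = 0.0570). No member was higher. Over all genes 12.5% passed, 8.93% as higher and 3.6% as lower, and over all probe sets 11.9% passed. Of the probe sets that passed 71.2% were higher, and 59.1% were after quantile normalization. The median log2 difference (intermittent hypoxia minus normoxia) of the 10 members was -0.10, against 0.01 over all genes, and 9 of 10 members were below 0. With so few members, 2 calls of 10 are not far from the 12.5% of all genes that passed in either direction. As lower calls they are a larger share than 3.6%, but that share rests on 2 genes. SAM, a permutation method that the design text names, called 0 of the 10 at 0.05 (adjusted p = 0.0501 for Bpifb1 and for Reg3g), and 3 had an unadjusted limma p below 0.05. Bpifb1 and Reg3g each lost the call in 6 of the 10 fits that left out 1 array, with adjusted p values up to 0.0890 and 0.107. Without normoxia arrays 2, 3 and 4 together, 0 members passed in limma, with differences of -0.93 for Bpifa1, -0.71 for Bpifb1 and -0.85 for Reg3g.

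Sequence just upstream of the start sites is printed for 5 members because 3 of them, Bpifa1, Bpifb1 and Reg3g, moved together over the arrays and 2, Cyp2f2 and Pigr, are the comparison. Each run is the 250 bases before the RefSeq start site on build GRCm38.p6, written 5′ to 3′ on the gene's strand. Capitals mark matches, on either strand, to 7 short motifs: the TATA box (TATAAA), the forkhead factors FOXA1 and FOXA2 (TGTTTNC), NKX2-1 (CAAGTG), C/EBP (TTNNGCAA), STAT (TTCNNNGAA), the core of the hypoxia response element (ACGTG) and the half-site of the ROR and REV-ERB receptors (AGGTCA).
Bpifa1 (chr2:154142630-154142879, + strand): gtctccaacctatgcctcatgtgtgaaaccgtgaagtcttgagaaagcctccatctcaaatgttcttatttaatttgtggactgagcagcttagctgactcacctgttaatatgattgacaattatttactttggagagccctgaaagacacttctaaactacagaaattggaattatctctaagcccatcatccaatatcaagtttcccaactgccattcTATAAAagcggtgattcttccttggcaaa
Bpifb1 (chr2:154190568-154190817, + strand): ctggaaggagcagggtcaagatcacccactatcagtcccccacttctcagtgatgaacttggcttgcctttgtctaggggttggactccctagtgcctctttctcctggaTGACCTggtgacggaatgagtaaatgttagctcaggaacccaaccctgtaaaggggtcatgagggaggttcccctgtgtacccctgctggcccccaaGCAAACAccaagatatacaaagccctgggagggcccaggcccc
Reg3g (chr6:78468875-78469124, - strand): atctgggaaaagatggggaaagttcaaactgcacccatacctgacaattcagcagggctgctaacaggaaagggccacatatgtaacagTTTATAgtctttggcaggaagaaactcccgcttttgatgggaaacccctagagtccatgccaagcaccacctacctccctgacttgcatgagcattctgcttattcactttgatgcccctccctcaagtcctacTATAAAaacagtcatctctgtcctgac
Cyp2f2 (chr7:27119705-27119954, + strand): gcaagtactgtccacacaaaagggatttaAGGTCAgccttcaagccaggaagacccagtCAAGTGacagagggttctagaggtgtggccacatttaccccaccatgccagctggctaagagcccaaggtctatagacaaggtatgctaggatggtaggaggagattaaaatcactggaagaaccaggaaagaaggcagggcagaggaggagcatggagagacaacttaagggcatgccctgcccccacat
Pigr (chr1:130826434-130826683, + strand): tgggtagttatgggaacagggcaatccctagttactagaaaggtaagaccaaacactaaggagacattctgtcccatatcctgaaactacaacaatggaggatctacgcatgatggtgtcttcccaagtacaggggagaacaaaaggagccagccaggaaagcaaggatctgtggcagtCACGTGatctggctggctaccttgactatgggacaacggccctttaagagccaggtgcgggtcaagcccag

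The windows of Bpifa1 and Reg3g held a TATA box 29 and 27 bases before the start site, and Reg3g had a further match on the opposite strand 161 bases before it. Muc1, which did not pass and whose window is not printed, had a TATA box 31 bases before its start. Bpifb1 has 2 start sites in the table, and the window of the first one listed is printed. It held no TATA match but a forkhead match 43 bases and a ROR and REV-ERB half-site 140 bases before the start. The window of the second (chr2:154200130-154200379) held neither of these and 1 STAT match 146 bases before its start. With either Bpifb1 window, no motif of the 7 was common to Bpifa1, Bpifb1 and Reg3g. The Cyp2f2 window held matches for NKX2-1 and for the ROR and REV-ERB half-site, and the Pigr window held ACGTG on both strands, within the palindrome CACGTG. These motifs are common: 12.4% of all 32851 windows of this length held the TATA letters, 17.8% the forkhead motif, 11.6% the NKX2-1 motif, 9.56% the C/EBP motif, 7.02% the STAT motif, 16.6% ACGTG and 14.0% the half-site. Of the 10 members 8 had a window in the table, and the other 2 were Scgb1a1 and Scgb3a2. Among windows not printed, that of Scgb3a1 held forkhead, NKX2-1 and STAT matches and that of Cbr2 a forkhead match. A match says only that these letters occur in the window.

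Among the secretoglobins, Scgb1a1 encodes the club cell secretory protein that defines the cell type. Its log2 level was 14.64, 14.62, 14.62, 14.51 and 14.58 on normoxia arrays 1 to 5 and 14.62, 14.56, 14.62, 14.60 and 14.52 on hypoxia arrays 1 to 5. The groups overlapped fully, and the difference was -0.01 (SE 0.05, 95% interval -0.13 to 0.11, limma adjusted p = 0.918). The interval corresponds to a level between 0.915 and 1.08 times that of normoxia. Only 3 probe sets in the table had a higher mean, and whether probes this bright were saturated, which would hide a change, was not tested.

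Scgb3a2, a secretoglobin of the bronchiolar and larger airway epithelium, read 14.07, 14.21, 14.06, 14.01 and 14.22 in normoxia and 13.96, 14.12, 13.99, 13.96 and 13.89 in intermittent hypoxia. Hypoxia array 2 lay within the normoxia range and the other 4 hypoxia arrays lay below all normoxia arrays. The difference was -0.13 (SE 0.07, 95% interval -0.27 to 0.02, limma adjusted p = 0.207). Scgb3a1, a secretoglobin found mainly in the larger airways, read 12.83, 12.27, 12.95, 12.93 and 13.11 in normoxia and 12.29, 12.80, 12.69, 12.68 and 12.34 in intermittent hypoxia. All 5 hypoxia arrays lay below the 4 normoxia arrays other than array 2, which was the lowest of all 10. The difference was -0.26 (SE 0.15, limma adjusted p = 0.253), and without normoxia array 2 it was -0.39 (SE 0.11, adjusted p = 0.0574).

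Both enzyme genes among the members differed little between the groups. Cyp2f2, a cytochrome P450 that activates naphthalene in club cells, lay between 14.26 and 14.41 on normoxia arrays, and hypoxia arrays spanned 14.22 to 14.42. Its difference was -0.05 (SE 0.06, 95% interval -0.19 to 0.08, limma adjusted p = 0.584). Cbr2, a carbonyl reductase of the airway and lung, spanned 14.29 to 14.51 under normoxia and 14.30 to 14.45 under hypoxia, with a difference of -0.07 (SE 0.06, 95% interval -0.20 to 0.07, adjusted p = 0.482). Their levels, like that of Scgb1a1, were near the top of the scale (highest value 14.94), with 5 and 4 probe sets of higher mean.

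**Figure D1:**
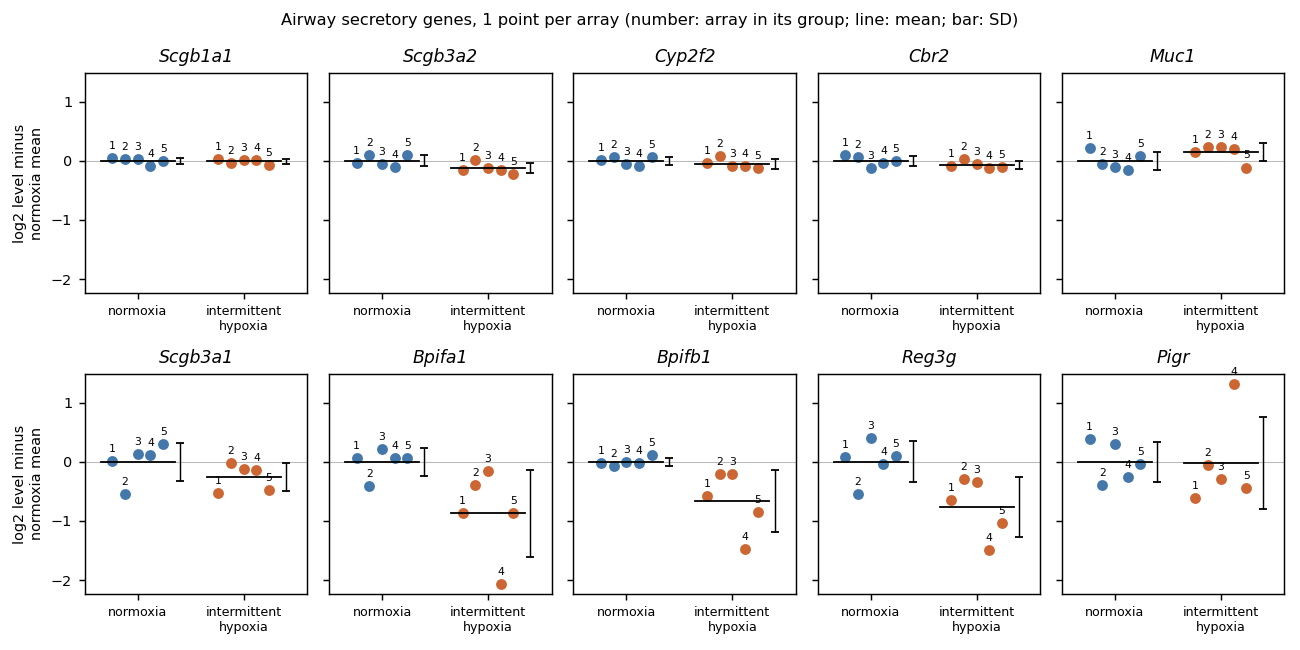
Log2 level of each airway secretory gene on each array, minus the gene's normoxia mean, with blue points for the 5 normoxia arrays and orange points for the 5 intermittent hypoxia arrays. Numbers are the arrays, horizontal lines the means and bars the SD. Scgb1a1, Scgb3a2, Cyp2f2 and Cbr2 stay near 0, while Bpifa1, Bpifb1 and Reg3g are lowest on hypoxia array 4 and Pigr is highest on it.

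Muc1 encodes a membrane mucin of the epithelial surface and was the only member with a positive difference. It read 11.58, 11.30, 11.25, 11.20 and 11.44 in normoxia and 11.51, 11.59, 11.59, 11.56 and 11.24 in intermittent hypoxia. Hypoxia array 5 lay within the lower part of the normoxia range, apart from the other 4 hypoxia arrays. The difference was 0.14 (SE 0.09, 95% interval -0.05 to 0.34, limma adjusted p = 0.290), and it turned to -0.016 after quantile normalization.

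The BPI-fold proteins are secreted by the epithelium and glands of the upper and large airways, where BPIFA1 (also called SPLUNC1) acts on surface tension and on bacteria. Bpifa1 read 12.98, 12.52, 13.14, 12.98 and 12.98 on normoxia arrays 1 to 5. On hypoxia arrays 1 to 5 it read 12.05, 12.53, 12.76, 10.86 and 12.06. Hypoxia arrays 2 and 3 reached the level of normoxia array 2, the lowest of its group, and the other 3 hypoxia arrays lay below every normoxia array. Normoxia averaged 12.92 ± 0.24 (SD, n = 5) and intermittent hypoxia 12.05 ± 0.73 (SD, n = 5), a difference of -0.87 (SE 0.28, 95% interval -1.46 to -0.27) that did not pass. Without hypoxia array 4 the difference was -0.57 (SE 0.16, adjusted p = 0.0507), and without hypoxia array 3 it was -1.05 and passed (adjusted p = 0.0399).

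Bpifb1, whose gene lies next to Bpifa1 in the same family cluster, read 10.80, 10.76, 10.83, 10.80 and 10.95 in normoxia. In intermittent hypoxia it read 10.25, 10.61, 10.62, 9.35 and 9.97. All 5 hypoxia arrays lay below all 5 normoxia arrays, which 2.85% of all genes also showed in this direction. The level was 0.630 of that in normoxia (95% interval 0.472 to 0.842), a difference of -0.67 (SE 0.19, limma adjusted p = 0.0423). Hypoxia array 4 was lowest here too, and without it the difference was -0.46 (SE 0.12, adjusted p = 0.0414). Without normoxia array 2 it was -0.68 (SE 0.21) and did not pass (adjusted p = 0.0734). The SD was 0.07 among normoxia arrays and 0.53 among hypoxia arrays. The name of this probe set ends in x_at, a class in which some probes can match other transcripts. The other probe set of Bpifb1 read 10.26 to 10.83 in normoxia and 8.70 to 10.55 in intermittent hypoxia, with overlapping groups and a difference of -0.74 (SE 0.27, adjusted p = 0.0841).

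Reg3g encodes a secreted lectin that kills Gram-positive bacteria and is made by airway and gut epithelium. It read 9.48, 8.86, 9.80, 9.37 and 9.51 in normoxia and 8.76, 9.11, 9.07, 7.92 and 8.37 in intermittent hypoxia. All hypoxia arrays lay below normoxia arrays 1, 3, 4 and 5, while normoxia array 2 lay below hypoxia arrays 2 and 3. The level in intermittent hypoxia was 0.591 of that in normoxia (95% interval 0.425 to 0.821), a difference of -0.76 (SE 0.22, limma adjusted p = 0.0420). Without hypoxia array 4 the difference was -0.58 (SE 0.18) and did not pass (adjusted p = 0.0718). Without normoxia array 2 it was -0.90 and passed (adjusted p = 0.0336).

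Pigr, the polymeric immunoglobulin receptor that carries IgA across the epithelium, took another course on hypoxia array 4. It read 10.19, 9.40, 10.10, 9.55 and 9.77 in normoxia and 9.18, 9.74, 9.51, 11.11 and 9.36 in intermittent hypoxia. Hypoxia array 4, the lowest for Bpifa1, Bpifb1 and Reg3g, was the highest of all 10 for Pigr. Over all 10 arrays Pearson r of Pigr was -0.44 with Bpifa1, -0.45 with Bpifb1 and -0.22 with Reg3g. Without hypoxia array 4 these were 0.79, 0.64 and 0.82, for which no test was run. The difference was -0.02 (SE 0.30, 95% interval -0.67 to 0.63, limma adjusted p = 0.970), and the wide interval rests on that array: without it the difference was -0.35 (SE 0.16, adjusted p = 0.178). The other probe set gave -0.01 (SE 0.33) and was also highest on hypoxia array 4, at 9.21 against 7.11 to 8.28 on the other arrays.

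**Figure D2:**
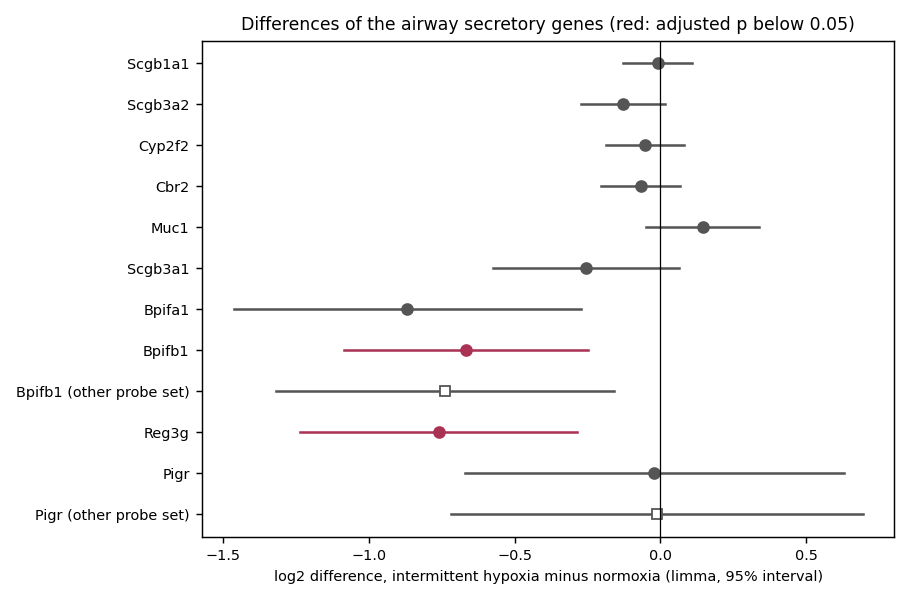
Log2 difference of each member, intermittent hypoxia minus normoxia, with its 95% interval from limma. Filled circles are the probe sets used for each gene, open squares the other probe sets and red the adjusted p values below 0.05. Bpifb1 (-0.67) and Reg3g (-0.76) are red, Bpifa1 (-0.87) has the largest difference and misses the threshold, and the intervals of Scgb1a1, Cyp2f2 and Cbr2 are narrow around 0.

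The members also differed in how much they varied between lungs of 1 group. The within-group SD of Scgb1a1 was 0.05, smaller than that of all but 0.807% of genes, and those of Cyp2f2, Cbr2 and Scgb3a2 were 0.07, 0.08 and 0.09, against a median of 0.13 over all genes. These 4 probe sets are among the brightest of the table, and the part of a ceiling in their small SD was not tested. At the other end, the SD was 0.60 for Pigr, 0.55 for Bpifa1, 0.43 for Reg3g and 0.38 for Bpifb1, each above at least 98.7% of genes. By the difference alone, which takes no account of that spread, few genes were more negative than Bpifa1, Reg3g and Bpifb1. The shares were 0.282%, 0.403% and 0.533% of 12393 genes.

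Over the 10 arrays 45 pairs of members were correlated, with two-sided permutation p values from 100000 resamples, adjusted over the 45 pairs. Bpifa1 and Bpifb1 ran together (Pearson r = 0.97, permutation p = 0.00018, adjusted 0.0027, and Spearman rho = 0.88, adjusted p = 0.0240). So did Bpifa1 and Reg3g (r = 0.95, permutation p = 3.0e-05, adjusted 0.00135, and rho = 0.94, adjusted 0.0036). Without the 2 arrays farthest from the median of Bpifa1, r was 0.88 for the first pair and 0.97 for the second, and without hypoxia array 4 alone it was 0.90 and 0.94. With group means removed, r was 0.94 and 0.91. That r pools both groups, and the SD was larger among hypoxia arrays than among normoxia arrays. It was 0.73 against 0.24 for Bpifa1, 0.53 against 0.07 for Bpifb1 and 0.50 against 0.34 for Reg3g. The r without hypoxia array 4 keeps the group difference, and r within each group alone was not computed. Among the bronchiolar genes, Scgb3a2 and Cyp2f2 ran together (r = 0.90, permutation p = 0.0005, adjusted 0.00562, rho = 0.84, adjusted 0.0323, and r = 0.83 without 2 arrays). Scgb1a1 did not run with either: r was 0.26 with Scgb3a2 (rho = 0.22, permutation p = 0.469, adjusted 0.752) and 0.28 with Cyp2f2 (rho = 0.27, permutation p = 0.433, adjusted 0.752). Without the 2 arrays farthest from the median of Scgb1a1, these turned to -0.30 and -0.40. All genes of a pair were read from the same RNA, so what an array shares enters each r.

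Averaging the centred log2 values gave 2 profiles. For Scgb1a1, Scgb3a2 and Cyp2f2 the profile ran from -0.10 to 0.09 over the arrays, although Scgb1a1 did not run with the other two. For Scgb3a1, Bpifa1, Bpifb1 and Reg3g it was 0.35, -0.07, 0.51, 0.35 and 0.46 in normoxia and -0.34, 0.09, 0.11, -0.97 and -0.49 in intermittent hypoxia. Within this profile, Pearson r of Scgb3a1 was 0.49 with Bpifa1, 0.44 with Bpifb1 and 0.64 with Reg3g (permutation adjusted p = 0.505, 0.512 and 0.250). Spearman rho was 0.79, 0.75 and 0.85 (permutation adjusted p = 0.0655, 0.108 and 0.0322). With group means removed, r was 0.28, 0.19 and 0.51. On this profile 4 normoxia arrays lay above all hypoxia arrays, and normoxia array 2 lay within their range. Of the genes outside the list, those most like the second profile by Pearson r over 10 arrays were Cxcl17 (0.96), Sema5a (0.95), Ctnnal1 (0.94), Rora (0.93), Morc4 (0.92) and D2hgdh (0.92). Cxcl17 is a chemokine of mucosal surfaces, and its difference was -0.18 (SE 0.08, limma adjusted p = 0.142). None of these 6 genes passed. Most like the first profile were Mlf1 (0.95), Serinc3 (0.94), Lrrc8a (0.93), Osbpl11 (0.93), Bmp7 (0.93) and Gpam (0.92), none of which passed either. These are the highest values of all genes and are given as a description.

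**Figure D3:**
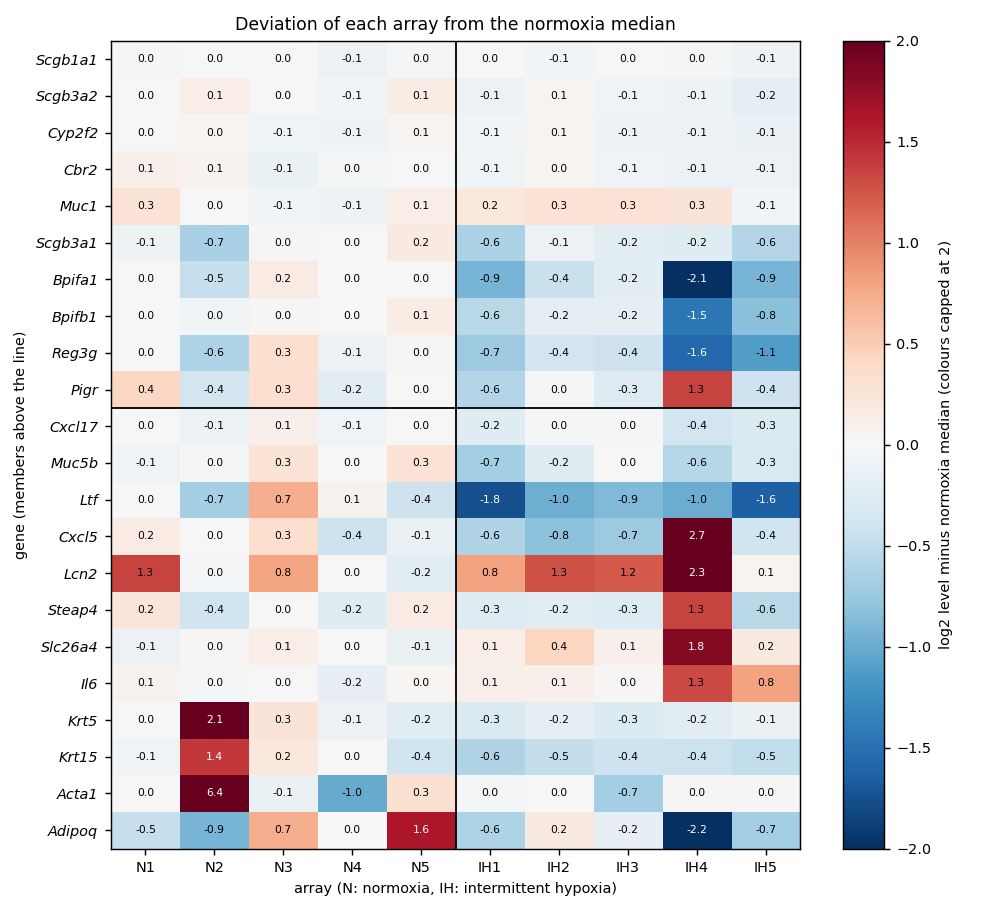
Log2 level on each array minus the gene's normoxia median, for the 10 members above the line and 12 other genes below it (N, normoxia; IH, intermittent hypoxia), with colours capped at 2. Hypoxia array 4 is low for Bpifa1 (-2.12), Bpifb1 (-1.45) and Reg3g (-1.56) and high for Pigr (1.34), Cxcl5 (2.73) and Steap4 (1.35), and normoxia array 2 is high for Acta1 (6.43) and Krt5 (2.13).

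Hypoxia array 4 stood apart in other mucosal genes too, named after their values were seen. Cxcl5, an epithelial chemokine that draws neutrophils, read 8.00 on it and 4.44 to 5.60 on the other arrays. Lcn2, an iron-trapping defence protein, reached 11.71 on it against 9.21 to 10.76 elsewhere, and Steap4, a metalloreductase, 9.58 against 7.67 to 8.47. The anion exchanger gene Slc26a4 read 9.13 against 7.15 to 7.74. By group none of these 4 passed. Saa3, also among the 6 mucosal inflammation genes, was highest on normoxia array 3 (9.13). It read 8.87 on hypoxia array 4 and 7.16 to 7.53 on the other hypoxia arrays. Its difference was -0.54 (SE 0.31, limma adjusted p = 0.245), the only negative one of the 6. Of 6 skeletal muscle genes 1 was lower and of 4 measured fat genes 1 was lower, and none of the 6 mucosal inflammation genes passed in limma (1 at an unadjusted p below 0.05, 0 in SAM). These lists were also made after the values were seen. Of 5 measured neutrophil markers none passed in limma, with 1 at an unadjusted p below 0.05 and 0 in SAM. Their summed level on hypoxia array 4 (4350, in linear units) lay within the normoxia range of 1716 to 5853. It was above the 2157 to 3098 of the other hypoxia arrays. Of these markers Cd177 was highest on hypoxia array 4, at 7.58 against 6.18 to 6.77 elsewhere. S100a8, S100a9, Ngp and Camp were each highest on a normoxia array. The 4 measured fat markers summed to 883 on hypoxia array 4, the lowest of all, against 1710 to 4758 in normoxia and 1396 to 1954 on the other hypoxia arrays. The part of these transcripts in the airway results was not tested.

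Other products of the same epithelium came from lists of known genes. Of 12 measured goblet cell and mucin genes 2 were lower, none was higher and 10 did not pass, with a median of -0.10. The share of lower calls over all genes was 3.6%. Muc5b, the main gel-forming mucin of the healthy airway, fell from 10.04 ± 0.17 to 9.59 ± 0.27 (SD, n = 5), by 0.46 (SE 0.12, limma adjusted p = 0.0334). Its lowest values were 9.27 and 9.38 on hypoxia arrays 1 and 4, and the highest hypoxia value, 9.95 on array 3, lay within the normoxia range. Agr2, a chaperone of mucin folding, fell by 0.31 (SE 0.08, adjusted p = 0.0253), but its other probe set differed by -0.04 and did not pass. Both lost their calls with single arrays left out, Muc5b with 6 and Agr2 with 5 of 10, at adjusted p values up to 0.0867 and 0.0686.

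Of 19 measured airway defence genes 2 were higher, 1 was lower and 16 did not pass (median 0.01), a share near the 12.5% of all genes. Ltf, the iron-binding protein lactoferrin of airway glands and neutrophils, read 10.13, 9.46, 10.85, 10.19 and 9.72 in normoxia and 8.37, 9.14, 9.25, 9.14 and 8.50 in intermittent hypoxia. The groups did not overlap, which 2.85% of all genes also showed in this direction, and Ltf fell by 1.19 (SE 0.24, limma adjusted p = 0.0118). It kept its call whichever single array was left out, but not without normoxia arrays 2, 3 and 4 together. The 2 that rose were Cxcl15, a chemokine of lung epithelium also called lungkine, by 0.48 (SE 0.10, limma adjusted p = 0.0112) and Chil1, a chitinase-like protein of epithelium and macrophages, by 0.56 (SE 0.17, adjusted p = 0.0465). Chil1 lost its call with 7 of the 10 arrays left out singly (adjusted p up to 0.116). Without normoxia arrays 2, 3 and 4 together neither passed, at 0.30 for Cxcl15 and 0.28 for Chil1. As Ltf is also made by neutrophils, 5 neutrophil markers are given beside it. Ngp differed by -0.60 (SE 0.19, limma adjusted p = 0.0528), Camp by -0.35 (SE 0.17, adjusted p = 0.169), S100a8 by -0.18, S100a9 by -0.08 and Cd177 by 0.19. The part of neutrophils in the lower Ltf was not tested.

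Of 14 measured genes for the handling of foreign chemicals by club cells, 4 were lower, none was higher and 10 did not pass (median -0.11). Over all genes 3.6% passed as lower and 8.93% as higher. Cyp2b10, a cytochrome P450, fell by 0.40 (SE 0.09), and Ces1d, a carboxylesterase, by 0.30 (SE 0.07). Fmo2, the flavin monooxygenase of lung, fell by 0.26 (SE 0.06), and Selenbp1, a selenium-binding protein, by 0.28 (SE 0.07), with limma adjusted p values of the 4 from 0.0184 to 0.0259. Each of the 4 genes had at least 1 other probe set that did not pass. The other probe sets of Ces1d differed by 0.02 and -0.15, and neither passed, nor did the only other of Selenbp1 (-0.19, adjusted p = 0.139). For Fmo2 one passed (-0.40) and one did not (-0.25, adjusted p = 0.173), and for Cyp2b10 likewise (-0.34, and -0.36 with adjusted p = 0.0528). Selenbp1 lost its call in 4 of the 10 fits without 1 array, Ces1d and Fmo2 in 1 each and Cyp2b10 in none. Several of these enzymes are also made outside club cells. Of 15 regulators of airway secretory cells 1 was lower, Sox21, a transcription factor of airway epithelium (-0.25, SE 0.07, adjusted p = 0.0361), which lost its call without 8 of 10 single arrays. Of those that did not pass, Sox2, the transcription factor of the conducting airways, differed by -0.30 (SE 0.11, adjusted p = 0.0898) and Foxa2 by 0.12 (SE 0.08).

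**Figure D4:**
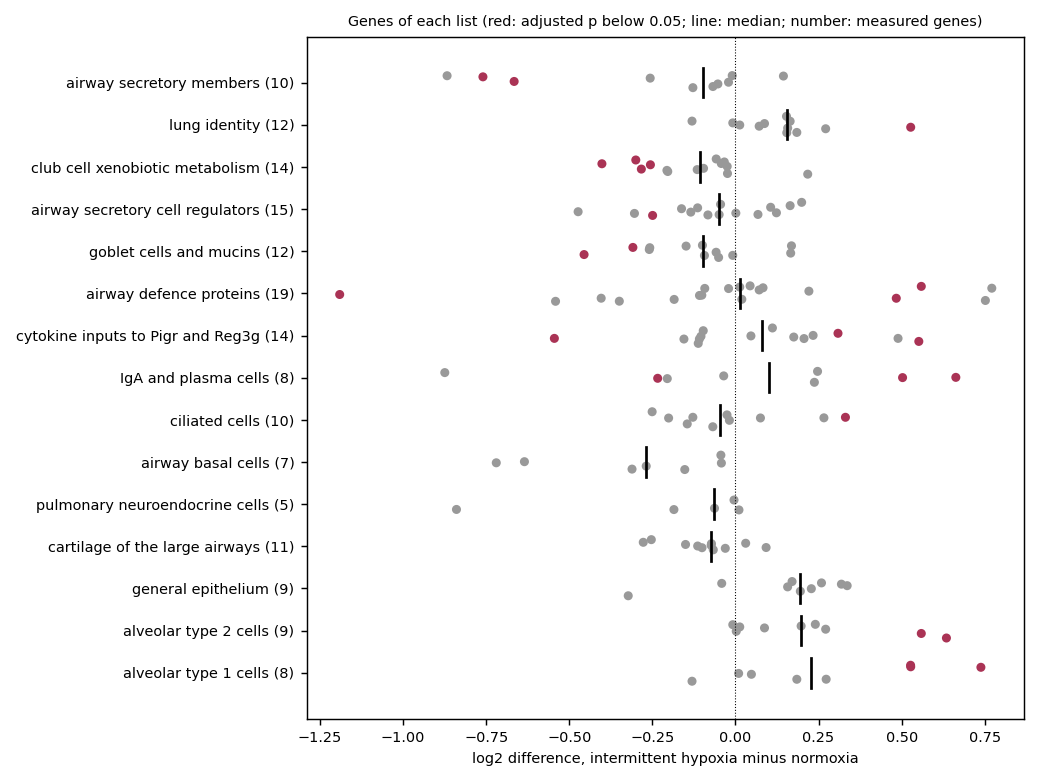
Log2 difference (intermittent hypoxia minus normoxia) of each measured gene by list, with the number of measured genes beside the name, the median as a line and red for an adjusted p below 0.05. The members' 2 calls lie below 0, the 4 calls among chemical-handling enzymes of club cells also do, and the 5 calls on the alveolar lists lie above 0.

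Markers of neighbouring cell types were counted in the same way. Of 10 measured ciliated cell genes 1 was higher, Tppp3, and 9 did not pass. Tppp3 differed by 0.33 (SE 0.09) and lost its call in 7 of the 10 fits without 1 array (adjusted p up to 0.103). Foxj1, the master regulator of motile cilia, differed by -0.25 (SE 0.12, adjusted p = 0.177). None of 7 airway basal cell genes passed in limma, with 3 at an unadjusted p below 0.05 and 0 in SAM, although all 7 differences were negative (median -0.27). Their summed linear level ran from 538 to 1279 in normoxia, highest on array 2, and from 503 to 545 in intermittent hypoxia. Ngfr and Krt17 had the smallest p values of that list, at -0.27 (SE 0.09, adjusted p = 0.0606) and -0.31 (SE 0.10, adjusted p = 0.0657). The other probe sets differed by 0.11 and 0.01 for Ngfr and by 0.04 for Krt17. None of 11 cartilage genes of the large airways passed (1 at an unadjusted p below 0.05, 0 in SAM, median -0.07). Their summed level was 1441 to 1799 in normoxia and 1290 to 1496 in intermittent hypoxia, and the groups overlapped. In that list Col9a1, a cartilage collagen, differed by -0.28 (SE 0.12, adjusted p = 0.128) and Chad, a cartilage matrix protein, by -0.25 (SE 0.12, adjusted p = 0.170). None of 5 neuroendocrine genes passed (1 at an unadjusted p below 0.05, 0 in SAM). Syp, the synaptic vesicle protein synaptophysin, differed by -0.84 (SE 0.26, adjusted p = 0.0527) but by 0.11 on its other probe set, and Resp18 by -0.19 (SE 0.09, adjusted p = 0.188). The first Syp probe set, also of the x_at class, read 9.92, 10.42 and 10.18 on normoxia arrays 2, 3 and 4. On normoxia arrays 1 and 5 it read 9.12 and 8.92, against 8.49 to 9.24 in intermittent hypoxia. Without normoxia arrays 2, 3 and 4, differences were -0.15 for Syp, -0.07 for Resp18, -0.09 for Krt17, -0.07 for Col9a1 and -0.06 for Chad. The part of large-airway tissue in the lower Bpifa1, Bpifb1 and Reg3g levels was not tested.

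No general epithelial or alveolar gene passed as lower. All 12 lung identity genes were measured: 1 passed as higher, Aqp5, and 11 did not pass, with Sftpc at a difference of -0.01 (SE 0.06). None of 9 general epithelial genes passed in limma, with 6 at an unadjusted p below 0.05 and 0 in SAM, and 7 of the 9 differences were positive (median 0.20). The tight junction genes Cldn7 and Cldn4 differed by 0.32 (SE 0.10, adjusted p = 0.0559) and -0.32 (SE 0.11, adjusted p = 0.0648). Of 9 alveolar type 2 cell genes 2 were higher, Etv5 by 0.63 (SE 0.18) and Chil1, and of 8 type 1 cell genes 3 were higher. Over all genes 8.93% passed as higher. Etv5 lost its call in 7 of the 10 fits without 1 array (adjusted p up to 0.101), and its other probe set differed by 0.18 and did not pass (adjusted p = 0.262). The 3 of type 1 cells were Col4a3 (0.74, SE 0.13), the water channel gene Aqp5 (0.53, SE 0.10), which airway gland cells also express, and Emp2 (0.53, SE 0.13). Emp2 lost its call in 4 of the 10 fits, and its other probe sets differed by 1.47, which passed, and by 0.48, which did not. Without normoxia arrays 2, 3 and 4 together none of the 3 passed, at 0.56 for Col4a3, 0.32 for Aqp5 and 0.30 for Emp2. 

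Signals that act on Pigr and Reg3g were followed on a list of 18 genes, mainly of cytokines and receptors. Only 14 of them were measured, so the list leaves part of these signals, those of the 4 unmeasured genes, unexamined. Among the 14 measured genes, 2 were higher and 1 was lower. Il17ra, the receptor chain for interleukin 17, rose by 0.55 (SE 0.10, limma adjusted p = 0.00903), and its other probe set rose by 0.28. Rela, an NF-kB subunit, rose by 0.31 (SE 0.07, adjusted p = 0.0222), and lost the call in 6 of the 10 fits without 1 array. Il6ra fell by 0.55 (SE 0.09, adjusted p = 0.00660), while its other probe set differed by -0.07 and did not pass. Il6 itself was low on most arrays (4.46 to 4.73 on 8 of them) and highest on hypoxia array 4 (5.94) and array 5 (5.43), the arrays with the lowest Bpifb1 and Reg3g. Il6 was named after its values were seen, and its difference was 0.49 (SE 0.21, limma adjusted p = 0.131). Of the other cytokines on the list, Il17a, Il1b and Ifng were highest on normoxia array 3 and Tnf on normoxia array 2. A link between Il6 and these members was not tested.

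The cargo of the Pigr receptor is IgA made by plasma cells. Of 8 measured genes of IgA and plasma cells 2 were higher, Sdc1 by 0.50 (SE 0.10) and Pou2af1 by 0.66 (SE 0.17), and 1 was lower, Tnfrsf17 by 0.23 (SE 0.07, adjusted p = 0.0496). The shares over all genes were 8.93% higher and 3.6% lower. Tnfrsf17 lost its call in 8 of the 10 fits without 1 array (adjusted p up to 0.125) and Pou2af1 in 6 (up to 0.0701). Sdc1 kept its call in all 10, and of its other probe sets 1 passed (0.32) and 2 did not (0.27 and 0.36, adjusted p = 0.0767 and 0.0729). Without normoxia arrays 2, 3 and 4 together none of the 8 passed, with Sdc1 at 0.28 and Pou2af1 at 0.32. Sdc1 is also made by epithelium. Igha differed by -0.21 (SE 0.44, adjusted p = 0.776) and Jchain, which joins IgA into the dimers that Pigr binds, by -0.87 (SE 0.40, adjusted p = 0.157). Both were widely spread and highest on normoxia array 2, where Pigr was the lowest of its group.

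**Figure D5:**
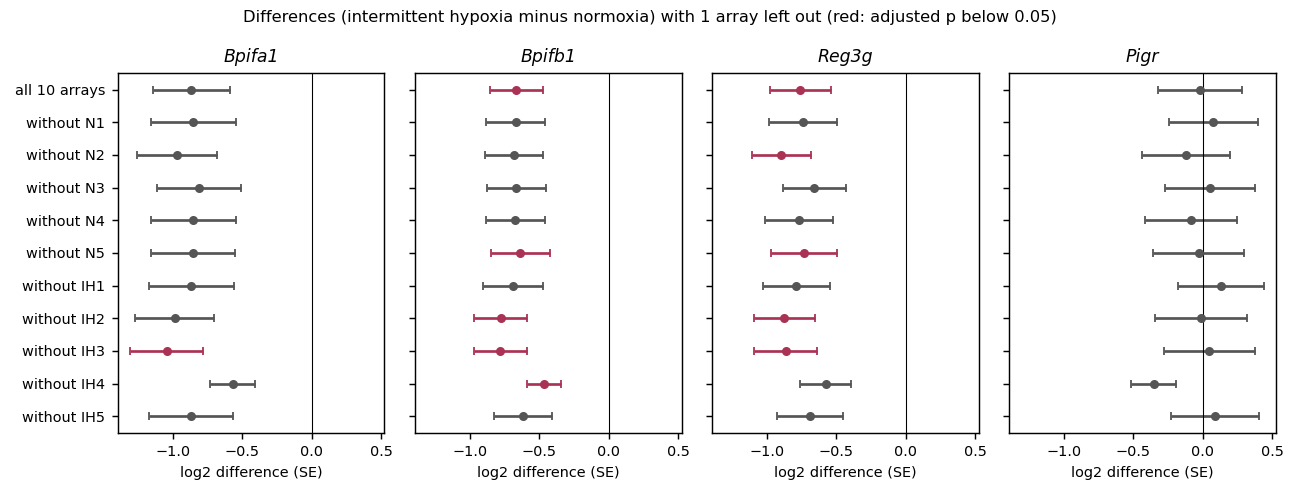
Log2 differences (intermittent hypoxia minus normoxia, with SE) of Bpifa1, Bpifb1, Reg3g and Pigr with all 10 arrays and with each array left out (N, normoxia; IH, intermittent hypoxia), red for an adjusted p below 0.05. The first 3 genes stay below 0 in every fit shown, from -1.05 to -0.46, while Pigr lies on either side of 0 and reaches -0.35 without hypoxia array 4.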

How the data were processed

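Whole-lung total RNA of 10 mice was hybridised to 1 Affymetrix array each. The authors deposited log2 levels, 1 per probe set and array, which were used unchanged. RMA and affy are named, without settings, per the submitters' processing notes. The spread of the arrays differed, so how they were normalized between each other is uncertain. Of 22626 probe sets, 20380 carried 1 gene symbol in the array's annotation, 691 several and 1555 none, and all were tested unfiltered.

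Groups came from the sample titles. Intermittent hypoxia was compared with normoxia in limma 3.58.1 (R 4.3.3; lmFit and eBayes, two-sided, Benjamini-Hochberg over all probe sets, threshold 0.05). The p-values reflect the spread between these arrays, and their number limits the precision. The members and lists were chosen with earlier results of these data known, so counts are descriptions. Named genes were all members, up to 4 called genes of each list (or 2 with the smallest p where none was called) and the 6 genes most like each profile. Other named genes were chosen after their values were seen. Alternatives were SAM (100 permutations, written for this work), a replicate block, quantile normalization, median centring, a level filter, trend and robust eBayes, arrayWeights, averaging probe sets per gene, a threshold of 0.10 and leaving out each array. The tools were tested on simulated data. Summed list levels add values raised from log2 to the linear scale. Upstream sequences are from RefSeq tables, and Python 3.11.15 with NumPy 2.4.6 did the correlations.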

Additional observations from a re-analysis of the deposited data

Results flagged for a closer look

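In 82 groups of 5 arrays, 4 values lay further from their neighbours than the 95% critical value of Dixon's gap test (0.71 of the group's range), where chance gives about 1 in 20. Bpifa1 on normoxia array 2 was 12.52, with the next normoxia value at 12.98. Pigr on hypoxia array 4 was 11.11, with the next hypoxia value at 9.74. Muc1 on hypoxia array 5 was 11.24, with the next at 11.51. Il6ra on normoxia array 5 was 9.99, with the next at 9.68.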

How the results depend on the processing

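Of 2699 probe sets that passed, the count was 4132 with arrayWeights, 1755 with a replicate block, 4954 at a threshold of 0.10, 16 without normoxia arrays 2, 3 and 4, and 1003 to 4800 without 1 array. Of the members 2 passed, but 0 with SAM, 0 with trend and robust eBayes, 1 after averaging probe sets per gene, 0 without those 3 arrays and 0 to 3 without 1 array. Bpifb1 and Reg3g kept their direction throughout but lost the threshold with SAM (-0.67 and -0.76), with trend and robust eBayes (-0.67 and -0.76), without the 3 arrays (-0.71 and -0.85) and, for Bpifb1, with the mean of its probe sets (-0.70). Without 1 array they ran from -0.78 to -0.46 and from -0.90 to -0.58. Bpifa1 passed with arrayWeights (-0.97), after dropping the dimmer probe sets below the median (-0.87) and after quantile normalization (-0.999), and ran from -1.05 to -0.57 without 1 array. The sign turned for Scgb1a1 after quantile normalization (0.029; -0.032 to 0.0055 without 1 array), for Pigr with arrayWeights (0.11; -0.35 to 0.13 without 1 array), and for Muc1 after quantile normalization (-0.016) and without the 3 arrays (-0.010). On the 14 lists together, lung identity and alveolar cells included, 21 of 142 genes passed, beside 12.5% of all genes. The count was 38 at a threshold of 0.10, 0 without the 3 arrays and 10 to 34 without 1 array. Without the 3 arrays, differences were 0.32 for Aqp5, 0.30 for Cxcl15 and 0.15 for Tppp3, and -1.04 for Ltf and -0.37 for Fmo2. The cause of these changes was not tested. Leaving out normoxia arrays 2, 3 and 4 was chosen after seeing the data.

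Arrays of the 2 groups share only a replicate number: the deviations of same-numbered arrays correlated at 0.06, 0.22, -0.12, 0.15 and -0.24. With that number as a replicate block, 2 members passed, Bpifb1 (-0.67, limma adjusted p = 0.0486) and Reg3g (-0.76, adjusted p = 0.0495), and 15 list genes.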
